A study of Mus musculus with 17 samples.

Results

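A set of 10 genes of the lipid droplet and of PPAR-gamma-driven fat storage was followed in mouse liver: Cidea, Cidec, Plin2, Plin4, Cd36, Mogat1, Pparg, G0s2, Pnpla2, and Pnpla3. They were chosen by name, as all probes that carry one of these symbols in the array annotation, which gave 14 probes for 10 genes out of 41174 non-control probes and 21452 gene symbols. Cd36 and Pnpla2 have 2 probes, Mogat1 has 3, and the others have 1; the probe with the highest mean normalized Cy5 signal is the main probe of its gene. Every one of the 14 probes was well above background in the liver channel on 17 of 17 arrays, none was saturated, and all 14 were tested, among 34664 probes for 19358 genes.

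The livers came from 17 male mice, with 1 array per mouse. Of these, 4 were fed chow and gavaged with maltose (chow, n = 4), 4 were fed chow and gavaged once with ethanol (1B, n = 4), 4 were fed HFD, a high-fat diet, and gavaged with maltose (HFD, n = 4), and 5 were fed HFD and gavaged once with ethanol (HFD+1B, n = 5). Diets ran for 3 months, the ethanol dose was 5 g/kg, and per the study's methods the animals were killed 9 hours after the gavage, so every mouse, controls included, had a gavage shortly before its liver was taken. The sample labels give the strain as C57BL/6N and the methods as C57BL/6J, no age at the start is given in the sources used here, and the ethanol groups model 1 acute dose rather than drinking over time. Liver cDNA was labeled with Cy5 and hybridized against a Cy3-labeled mouse reference RNA on Agilent 60-base oligonucleotide arrays. Values below are log2 ratios of liver over that reference, and a difference of 1 between groups is a 2-fold change. A group difference was called when limma's p, adjusted over all probes tested by Benjamini-Hochberg, was at most 0.05. Each mouse gave 1 sample, so the spread between mice is the error, but whole liver was measured, and more RNA per cell cannot be told apart from more cells of a type.

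A lipid droplet is a core of triglyceride and cholesteryl ester inside a single layer of phospholipid that carries its own proteins. Perilipins (Plin genes) coat the surface and govern access of lipases, and CIDE proteins (Cide genes) sit where droplets touch and let lipid pass from the smaller to the larger one. ATGL, the product of Pnpla2, removes the first fatty acid from stored triglyceride, and the small protein G0S2 binds and inhibits it. PPAR-gamma is a nuclear receptor that drives fat storage in adipocytes; it is low in normal liver and is known to rise in fatty liver, where Cidea, Cidec, Plin4, Cd36, and Mogat1 are known targets. It binds DNA with RXR at repeats of the motif AGGTCA.

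Upstream sequences are shown for Plin2 and Cd36, which rose with diet and hold a letter match to this motif, for Mogat1, which rose and holds none, and for G0s2, which fell after ethanol on HFD. Promoters were read from RefSeq on build GRCm38.p6, 250 bases up to the annotated start, 5′ to 3′ on the gene's strand, with the motif AGGTCA or its reverse complement TGACCT in capitals. In all, 12 windows were read for 9 of the 10 genes. Cidea was left out, so the motif counts below do not cover it.

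Plin2 (chr4:86670060-86670309, minus strand): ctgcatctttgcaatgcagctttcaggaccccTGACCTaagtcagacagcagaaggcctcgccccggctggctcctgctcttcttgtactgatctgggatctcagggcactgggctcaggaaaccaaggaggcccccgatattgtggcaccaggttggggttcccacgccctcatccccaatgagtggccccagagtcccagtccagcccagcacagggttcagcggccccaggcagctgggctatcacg
Cd36 (chr5:17835897-17836146, minus strand): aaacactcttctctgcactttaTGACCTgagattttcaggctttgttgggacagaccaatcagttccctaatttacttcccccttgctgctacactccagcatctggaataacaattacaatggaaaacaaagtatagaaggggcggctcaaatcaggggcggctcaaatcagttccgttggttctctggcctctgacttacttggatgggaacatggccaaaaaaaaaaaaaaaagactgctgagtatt
Mogat1 (chr1:78510810-78511059, plus strand): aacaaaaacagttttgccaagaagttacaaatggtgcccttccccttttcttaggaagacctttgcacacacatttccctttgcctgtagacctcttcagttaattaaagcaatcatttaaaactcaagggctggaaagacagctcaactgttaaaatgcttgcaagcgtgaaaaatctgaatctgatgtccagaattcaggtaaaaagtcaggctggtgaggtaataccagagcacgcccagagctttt
G0s2 (chr1:193273189-193273438, minus strand): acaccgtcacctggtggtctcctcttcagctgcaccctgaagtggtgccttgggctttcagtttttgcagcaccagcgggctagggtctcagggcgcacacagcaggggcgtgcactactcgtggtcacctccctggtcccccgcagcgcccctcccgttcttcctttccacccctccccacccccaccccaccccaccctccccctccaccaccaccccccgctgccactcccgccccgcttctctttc

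Plin2 holds the motif on the reverse strand, its first base lying 218 bases before the start, and Cd36 holds it on the reverse strand at 228 bases. At Pparg, 2 of the 3 annotated starts also had one, on the forward strand, at 28 and 9 bases. In Mogat1, G0s2, Cidec, Plin4, Pnpla2, and Pnpla3 these letters were not found in the windows read. Among all 32851 promoters of the table, 14% held AGGTCA on either strand within the same 250 bases, against 4 of the 12 windows here. These 4 windows belong to 3 of the 9 genes, 2 of them to Pparg. The direct repeat AGGTCANAGGTCA was in none of the 12 windows and in 0.0335% of all promoters, and the looser AGGNCANAGGNCA in none and 0.338%. These matches describe letters only and say nothing of binding.

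HFD feeding was the first comparison. In HFD against chow, 6 of the 10 genes rose, Cidea, Cidec, Plin2, Plin4, Cd36, and Mogat1, and none fell, where 4.6% of all genes tested rose and 6.29% fell. The median difference over the 10 genes was 1.41 on the log2 scale, against 0.0043 over all genes. The same 6 genes and Pnpla2 rose in HFD+1B against chow, 7 of 10, with a median of 1.20 beside 0.0022 for all genes, where 9.01% of all genes rose and 7.27% fell. Both comparisons share the 4 chow mice. Pparg, G0s2, and Pnpla3 passed the test in neither. The 10 genes were chosen with earlier results of these data known, so the shares of all genes, here and below, stand beside them as a description only.

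**Figure D1:**
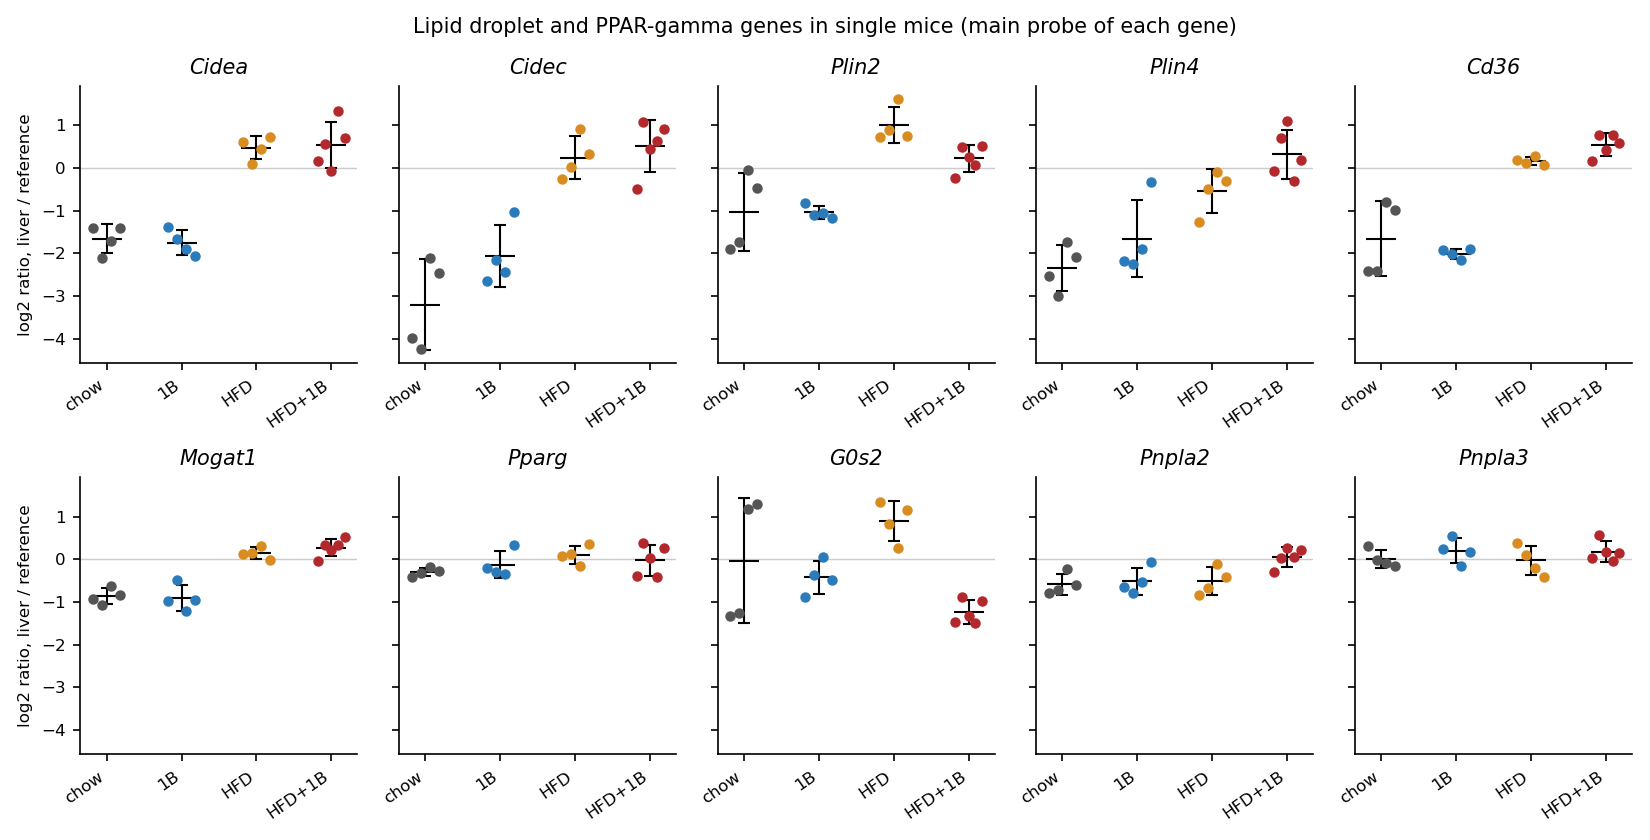
Log2 ratio of liver over reference (y axis) for each mouse (points) in the 4 groups (x axis), 1 panel per gene, with the main probe of each gene; bars show the mean and SD. In Cidea, Cidec, Plin4, Cd36, and Mogat1 all HFD and HFD+1B mice lie above all chow mice. In G0s2 the HFD+1B mice lie below all HFD and 1B mice, and 2 of the chow mice lie among them.

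Cidec, also called Fsp27, encodes the protein that fuses droplets into large ones. Its log2 ratios were -4.0, -4.24, -2.11, and -2.47 in the chow mice and -2.65, -2.15, -2.43, and -1.03 in the 1B mice. They were -0.27, 0.01, 0.90, and 0.32 in the HFD mice and -0.49, 1.08, 0.44, 0.63, and 0.92 in the HFD+1B mice. No HFD-fed mouse reached down to a chow-fed one, with or without ethanol. Cidec was 10.9-fold higher in HFD than in chow (log2 difference 3.44, SE 0.46, limma adjusted p = 0.00026) and 13.2-fold higher in HFD+1B (3.72, SE 0.43, adjusted p = 1.51e-05), the widest differences among the 10 genes in both comparisons.

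Cidea, which promotes droplet enlargement and is abundant in brown fat, gave -1.41, -2.12, -1.72, and -1.40 in chow and -1.39, -1.66, -1.91, and -2.07 in 1B. The HFD values were 0.61, 0.10, 0.45, and 0.71, and the HFD+1B values 0.16, 0.57, -0.07, 1.32, and 0.71. The 2 diets did not overlap, and the 2 gavages within a diet did. Cidea rose 4.37-fold in HFD (2.13, SE 0.24, adjusted p = 8.84e-05) and 4.60-fold in HFD+1B (2.20, SE 0.23, adjusted p = 6.02e-06) against chow.

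The 2 perilipins rose with diet, and neither passed the test in 1B against chow or in HFD+1B against HFD. Plin2, the main droplet coat of hepatocytes, gave -1.90, -1.74, -0.06, and -0.48 in chow and -0.83, -1.09, -1.05, and -1.18 in 1B. In HFD it gave 0.73, 0.88, 1.62, and 0.75, and in HFD+1B -0.23, 0.50, 0.25, 0.07, and 0.51. The HFD mice stood above all others, and 1 HFD+1B mouse lay below the highest chow mouse. Plin2 rose 4.11-fold in HFD (2.04, SE 0.32, adjusted p = 0.000929) and 2.40-fold in HFD+1B (1.26, SE 0.30, adjusted p = 0.00813).

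Plin4, a perilipin of adipocytes and of fatty liver, gave -2.54, -3.0, -1.74, and -2.09 in chow and -2.18, -2.25, -1.90, and -0.32 in 1B. It gave -1.27, -0.49, -0.09, and -0.31 in the HFD mice and -0.07, 0.69, 1.1, -0.32, and 0.18 in the HFD+1B mice. 1B mouse 4 stood near the HFD mice, and it was also the highest of the 1B mice in Cidec, Pparg, and Pnpla2. Plin4 rose 3.49-fold in HFD (1.80, SE 0.40, adjusted p = 0.00846) and 6.32-fold in HFD+1B (2.66, SE 0.38, adjusted p = 0.000105). The HFD call was lost with the Cy5 signal alone, without the reference channel (adjusted p = 0.0584).

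Of the genes that bring in or build fat, Cd36 encodes a fatty acid translocase. Its main probe gave -2.42, -2.42, -0.80, and -0.99 in chow and -1.93, -2.03, -2.17, and -1.91 in 1B. It gave 0.18, 0.12, 0.27, and 0.07 in the HFD mice and 0.15, 0.78, 0.43, 0.77, and 0.59 in the HFD+1B mice. All 9 HFD-fed mice lay above 0 and all 8 chow-fed mice below it. The rise was 3.52-fold in HFD (1.81, SE 0.28, adjusted p = 0.000859) and 4.60-fold in HFD+1B (2.20, SE 0.27, adjusted p = 2.27e-05), and the other Cd36 probe gave 1.72 and 1.90 with both calls kept.

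Mogat1 encodes monoacylglycerol acyltransferase 1, which makes diacylglycerol for triglyceride. Its main probe gave -0.94, -1.07, -0.63, and -0.84 in chow and -0.97, -0.48, -1.21, and -0.96 in 1B. In HFD it gave 0.12, 0.15, 0.32, and -0.02, and in HFD+1B -0.04, 0.35, 0.21, 0.34, and 0.52. The groups separated by diet without overlap, and in HFD+1B against chow 5 of the 10 genes did so, where 15.5% of all genes did. The rise was 2.02-fold in HFD (1.01, SE 0.15, adjusted p = 0.000481) and 2.21-fold in HFD+1B (1.14, SE 0.14, adjusted p = 2.19e-05).

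The 3 Mogat1 probes differed in the size of the rise and not in its direction. The differences in HFD against chow were 1.01, 0.95, and 1.54, and in HFD+1B against chow 1.14, 0.90, and 1.51, and all 6 passed the test. In the authors' table of log2 ratios those of the third probe were 2.56 and 2.51. The third probe was also the dimmest, with a median Cy5 signal of 71 intensity units in chow and 225 in HFD+1B. Probes 2 and 3 are shown because they differ most in the rise they report.

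Mogat1, probe 2: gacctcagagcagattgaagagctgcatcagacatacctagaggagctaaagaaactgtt
Mogat1, probe 3: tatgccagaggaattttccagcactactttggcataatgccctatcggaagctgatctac

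Pparg itself did not pass the test in any comparison. The chow mice gave -0.41, -0.33, -0.17, and -0.26 and the 1B mice -0.19, -0.29, -0.35, and 0.33. The HFD mice gave 0.08, 0.13, -0.16, and 0.37 and the HFD+1B mice -0.39, 0.38, 0.02, -0.41, and 0.27. The 4 HFD mice lay above the 4 chow mice by a narrow margin, a pattern without overlap that 19.2% of all genes showed in that comparison. The difference in HFD was 0.40 (SE 0.18, 95% CI 0.02 to 0.77, adjusted p = 0.171) and in HFD+1B 0.27 (95% CI -0.09 to 0.63, adjusted p = 0.35), so a rise of 0.77 on the log2 scale in HFD lies within the interval. The probe is averaged from 10 spots on each array, and it was not shown to tell the 2 Pparg transcripts apart.

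G0s2, the inhibitor of ATGL, had the widest spread of the 10 genes among chow mice, with -1.33, -1.26, 1.18, and 1.30 (SD 1.46, n = 4). The 1B mice gave -0.88, -0.38, 0.06, and -0.48, the HFD mice 1.36, 0.82, 0.27, and 1.15, and the HFD+1B mice -1.47, -0.88, -1.32, -1.5, and -0.98. The chow mice fell into a low and a high pair that spanned nearly all values of the other groups. G0s2 differed from chow by 0.93 in HFD (95% CI -0.07 to 1.93, adjusted p = 0.229) and by -1.20 in HFD+1B (95% CI -2.15 to -0.25, adjusted p = 0.0854). The second of these passed once chow mouse 1 was left out (-1.64, adjusted p = 0.0181). It also passed if chow mouse 2 was dropped instead (-1.61, adjusted p = 0.0221), or with array weights (-1.78, adjusted p = 0.00748).

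These 2 low chow mice, 1 and 2, were also lower than the other 2 in Cidec, Plin2, Plin4, Cd36, Mogat1, Pparg, and Pnpla2. In Cd36 they gave -2.42 and -2.42 against -0.80 and -0.99, and in Plin2 -1.90 and -1.74 against -0.06 and -0.48. These mice were measured on slides 1 and 2, and the other chow mice on slides 3 and 4. On each of 3 slides that held an HFD and a chow mouse, all 6 called genes were higher in the HFD mouse, by 1.06 or more, and on each of 4 slides with an HFD+1B and a chow mouse they were higher in the former, by 0.56 or more. With slide as a block the same number of genes was called in HFD, 6 of 10, and in HFD+1B, 7 of 10, against chow.

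The effect of 1 ethanol gavage in chow-fed mice was the next comparison. In 1B against chow none of the 10 genes passed limma's test, where 4.16% of all genes tested did, and the median difference was 0.036 beside 0.0096 over all genes. The lowest p of the 10 was that of Cidec, with a difference of 1.14 (SE 0.46, 95% CI 0.18 to 2.10, adjusted p = 0.236). The analysis of variance with the Tukey test, its p further adjusted by Benjamini-Hochberg over all probes, also called none. The intervals were wide for G0s2, from -1.39 to 0.61, and for Plin4, from -0.16 to 1.52, so changes of 2-fold were not excluded there, whereas Mogat1 lay between -0.34 and 0.27. The second Mogat1 probe was lower in all 4 1B mice than in all 4 chow mice, by -0.30 (SE 0.09, adjusted p = 0.0872), a separation without overlap that 11.9% of all genes showed.

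**Figure D2:**
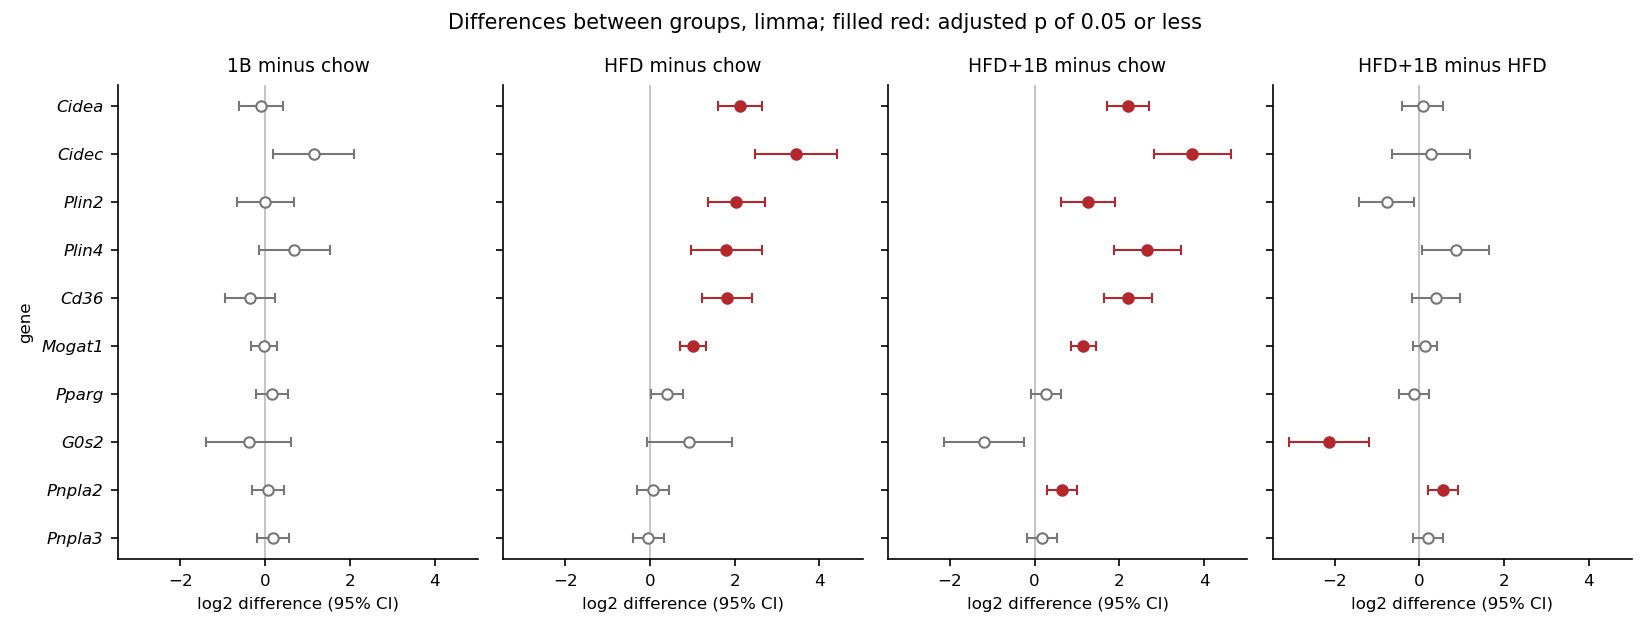
Log2 difference between groups (x axis, point with 95% confidence interval from limma) for the main probe of each gene (y axis) in 4 comparisons. Filled red points passed the test: 0 in 1B minus chow, 6 in HFD minus chow, 7 in HFD+1B minus chow, and in HFD+1B minus HFD 1 lower (G0s2) and 1 higher (Pnpla2).

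The ethanol gavage in mice already on HFD was read from HFD+1B against HFD. G0s2 fell and Pnpla2 rose, 1 of 10 genes in each direction, where 8.44% of all genes tested fell and 10.9% rose, so the share called is near that of all genes. The median of the 10 differences was 0.17 beside 0.0061 over all genes. Cidea (0.07, 95% CI -0.41 to 0.56), Cidec (0.27, 95% CI -0.64 to 1.19), Cd36 (0.39, 95% CI -0.18 to 0.95), and Mogat1 (0.13, 95% CI -0.16 to 0.42) did not pass.

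G0s2 was 4.39-fold lower in HFD+1B than in HFD (log2 difference -2.13, SE 0.45, adjusted p = 0.00359), and all 5 HFD+1B mice lay below all 4 HFD mice. The 2 groups do not overlap, as in 15.3% of all genes. On each of the 4 slides that held a mouse of both groups, G0s2 was lower in the HFD+1B mouse, with differences from -2.83 to -1.59. The call held with slide as a block (-2.30, adjusted p = 0.0026) and with the replicate number as a block (-2.19, adjusted p = 0.00515). It was lost by the analysis of variance with the Tukey test once the Tukey p was further adjusted by Benjamini-Hochberg over all probes (adjusted p = 0.0806). The Tukey p without that step is not given here.

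Pnpla2 was read by 2 probes of similar brightness. On the brighter, chow mice gave -0.78, -0.72, -0.23, and -0.59, 1B mice -0.65, -0.80, -0.54, and -0.06, HFD mice -0.83, -0.67, -0.11, and -0.41, and HFD+1B mice -0.30, 0.03, 0.28, 0.06, and 0.22. On the other, chow mice gave -0.67, -0.82, -0.36, and -0.46, 1B mice -0.50, -0.44, -0.45, and -0.24, HFD mice -1.0, -0.53, -0.77, and -0.66, and HFD+1B mice 0.07, -0.05, 0.22, 0.17, and 0.29. On the second probe the HFD+1B mice stood above every mouse of the other groups, and on the brighter one 1 HFD+1B mouse stood among them.

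The rise of Pnpla2 in HFD+1B against HFD was 1.48-fold on the brighter probe (0.56, SE 0.17, adjusted p = 0.0293) and 1.84-fold on the second (0.88, SE 0.11, adjusted p = 9.36e-05). On 4 of 4 slides both probes were higher in the HFD+1B mouse, by 0.38 to 0.89 and by 0.82 to 1.07. The call of the brighter probe was lost without any one of 6 mice, HFD mouse 1 (adjusted p = 0.0902), 2 (0.0771), or 4 (0.0513) or HFD+1B mouse 3 (0.0616), 4 (0.0562), or 5 (0.0523), while its difference stayed between 0.45 and 0.59 in these. Against chow Pnpla2 rose by 0.64 in HFD+1B on the brighter probe (SE 0.17, adjusted p = 0.016) and by 0.72 on the second (SE 0.11, adjusted p = 0.000267), and it differed in HFD by 0.08 (adjusted p = 0.835) and -0.17 (adjusted p = 0.41). Without chow mouse 1 or 2 the brighter probe missed the threshold in HFD+1B against chow (adjusted p = 0.0541 and 0.0516). The second probe is shown as the one on which the rise was clearest.

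Pnpla2, probe 2: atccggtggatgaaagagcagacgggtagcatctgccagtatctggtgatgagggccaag

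**Figure D3:**
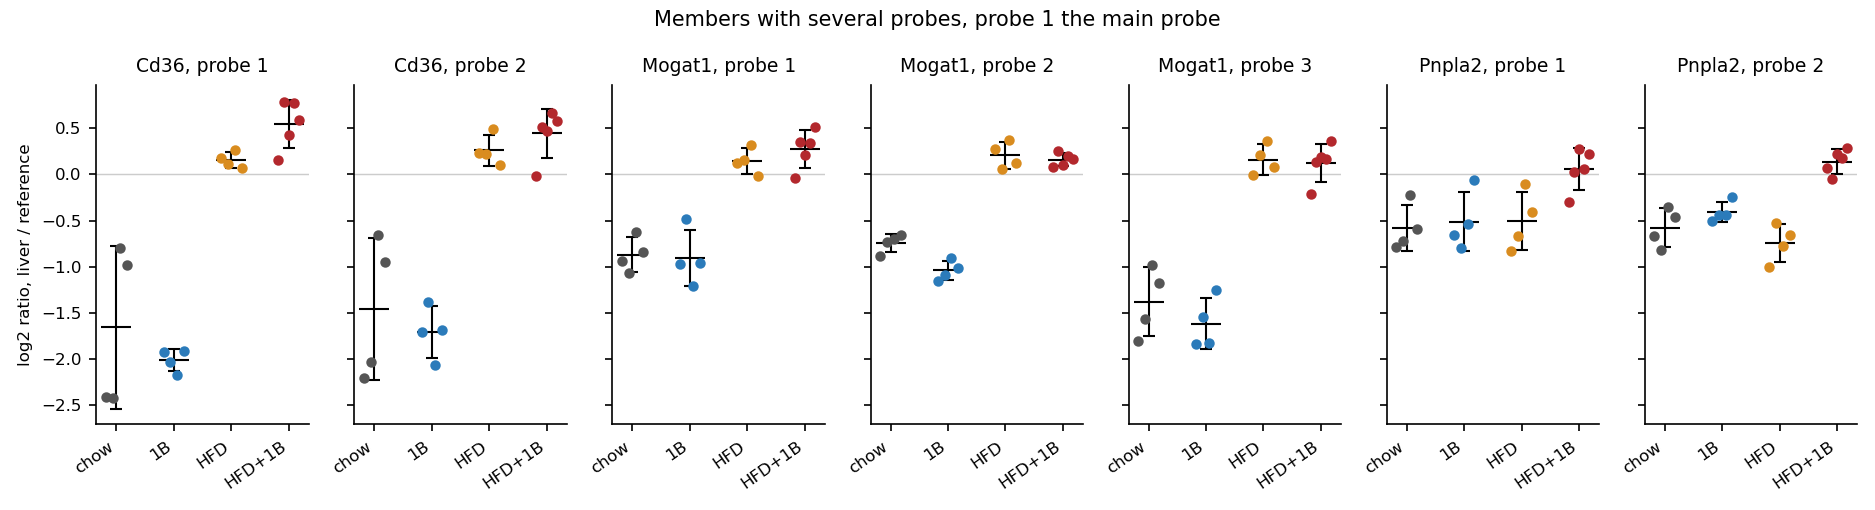
Log2 ratio of liver over reference (y axis) for each mouse in the 4 groups (x axis), for every probe of Cd36, Mogat1, and Pnpla2, with bars for the mean and SD; probe 1 is the main probe of its gene. Both Cd36 probes and the 3 Mogat1 probes lie higher in HFD and HFD+1B than in chow, and in the second Pnpla2 probe all 5 HFD+1B mice lie above all other mice.

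Plin2 and Plin4 lay near the threshold in HFD+1B against HFD, in opposite directions. Plin2 differed by -0.78 (SE 0.30, adjusted p = 0.0862), with all 5 HFD+1B mice below all 4 HFD mice and lower values on 4 of 4 slides, by between -1.37 and -0.37. It passed with slide as a block (-0.88, adjusted p = 0.0243) and with the replicate number, which was taken to pair mice in this comparison, as a block (-0.85, adjusted p = 0.0437). It also passed without chow mouse 3, which leaves the difference itself at -0.78 (adjusted p = 0.044). Plin4 differed by 0.86 (SE 0.38, adjusted p = 0.127) and passed with median centring in place of loess (1.1, adjusted p = 0.0317). Pparg differed by -0.13 (95% CI -0.48 to 0.23) and Pnpla3 by 0.21 (95% CI -0.15 to 0.56).

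**Figure D4:**
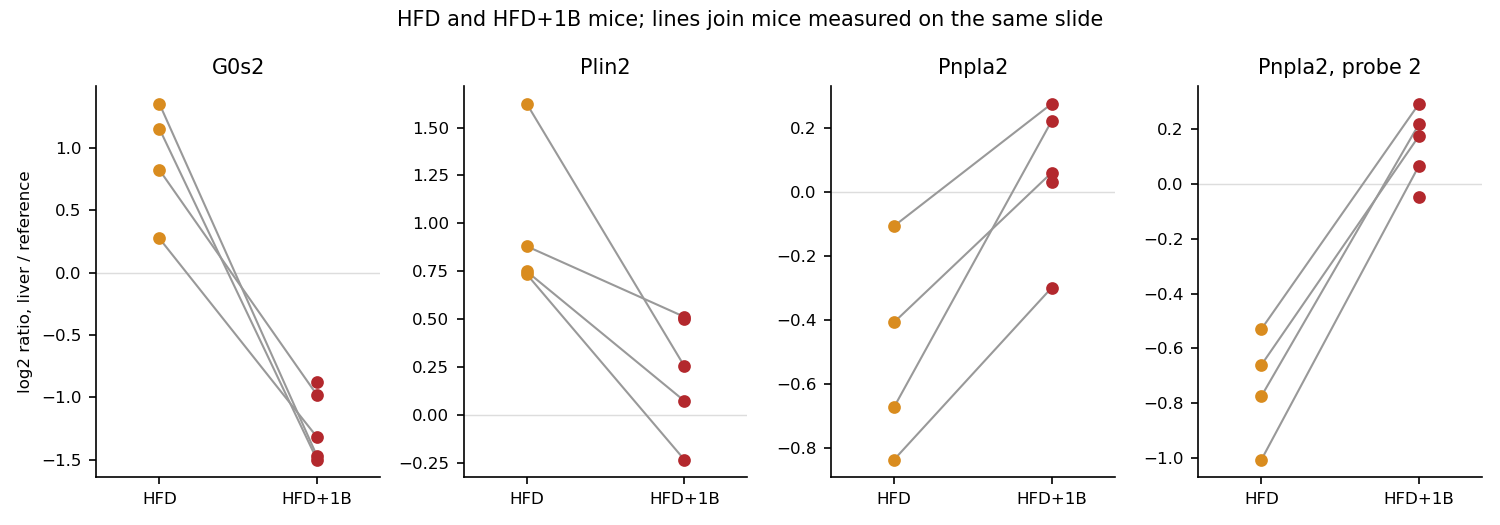
Log2 ratio of liver over reference (y axis, a scale of its own in each panel) in HFD and HFD+1B mice (x axis) for G0s2, Plin2, and both Pnpla2 probes; points are mice and lines join mice measured on the same slide. G0s2 and Plin2 go down and both Pnpla2 probes go up on all 4 slides that held both groups, and 1 HFD+1B mouse has no HFD mouse on its slide.

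Pnpla3, the lipase-like paralog of Pnpla2 and a known site of inherited risk of fatty liver in people, showed no call. The chow mice gave 0.31, -0.01, -0.09, and -0.16 and the 1B mice 0.23, 0.55, -0.15, and 0.17. The HFD mice gave 0.39, 0.11, -0.19, and -0.41 and the HFD+1B mice 0.04, 0.58, 0.17, -0.04, and 0.15. All groups overlapped. The differences from chow were -0.04 in HFD (95% CI -0.41 to 0.34) and 0.17 in HFD+1B (95% CI -0.18 to 0.52), and both intervals lie within a 1.5-fold change.

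The effect of diet among ethanol-gavaged mice was read from HFD+1B against 1B. Of the 10 genes, 7 rose, the 6 droplet and fat uptake genes and Pnpla2, and none fell, where 6.26% of all genes rose and 5.11% fell, and the median was 1.22 beside -0.0085 over all genes. The differences were 2.30 for Cidea, 2.58 for Cidec, 1.26 for Plin2, 1.98 for Plin4, 2.55 for Cd36, 1.18 for Mogat1, and 0.57 for Pnpla2, with adjusted p values between 8.43e-06 and 0.0409. G0s2 was lower in all 5 HFD+1B mice than in all 4 1B mice (-0.81, 95% CI -1.76 to 0.14, adjusted p = 0.324), a separation that 11.4% of all genes showed in either direction. The Pnpla2 call on the brighter probe was lost in 14 of 31 alternative settings, and the second probe gave 0.55 (adjusted p = 0.00448).

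Whether the ethanol effect differed between diets was tested as the interaction, the difference of HFD+1B and HFD minus that of 1B and chow. None of the 10 genes passed limma's test on its main probe, where 4.27% of all genes did. The lowest p of the 10 was that of G0s2 (-1.74, SE 0.65, adjusted p = 0.142), for which the ethanol difference was -0.39 in chow-fed and -2.13 in HFD-fed mice. For Pnpla2 the ethanol differences were 0.07 and 0.56 on the brighter probe, an interaction of 0.49 (SE 0.25, adjusted p = 0.279), and 0.17 and 0.88 on the second, an interaction of 0.71 (SE 0.16, adjusted p = 0.0228). The second probe was therefore called and the first was not. In the other genes the interaction lay between -0.87 for Cidec and 0.74 for Cd36.

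Ordered by level on the main probe, Cidea, Cidec, Cd36, and Mogat1 each placed HFD+1B highest and HFD next, and the test called no difference between these 2 groups. Plin4 had that order too, whereas in Plin2 and G0s2 HFD stood highest, and in G0s2 HFD+1B stood lowest. In Pnpla2 HFD+1B was highest, and on the brighter probe chow, 1B, and HFD lay within 0.08 of each other.

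The other genes of the pathway were read from lists of neighbors in function. Of 15 other droplet proteins, 2 rose and 1 fell in HFD, and 3 rose and 3 fell in HFD+1B, against chow, with medians of 0.35 and 0.049. The 2 largest rises in HFD+1B were those of further perilipins, Plin3 (1.51, adjusted p = 3.57e-06) and Plin5 (1.24, adjusted p = 7.14e-05), the latter the perilipin of oxidative tissues. Plin5 had risen in 1B as well (0.66, adjusted p = 0.0484) and rose in HFD+1B against HFD (1.31, adjusted p = 0.000103). Fitm2, which helps droplets bud from the endoplasmic reticulum, fell in HFD+1B against chow (-0.92, adjusted p = 0.00915), as did the droplet hydrolase Ldah (-0.74, adjusted p = 0.00151). Cideb, the CIDE gene of normal hepatocytes, rose in HFD (0.57, adjusted p = 0.00714).

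Of 9 other lipolysis genes, 1 rose and 2 fell in HFD+1B against chow, and 1 rose and 1 fell in HFD. Abhd5, also called CGI-58, is the co-activator of ATGL. It rose in 1B against chow (0.58, adjusted p = 0.0213), in HFD+1B against chow (0.76, adjusted p = 0.00048), and in HFD+1B against HFD (0.56, adjusted p = 0.00629), with all mice of the first group above all of the second in each. Mgll, the lipase of the last step, rose in HFD (0.98, adjusted p = 0.0154). Ces1d, a triglyceride hydrolase of the endoplasmic reticulum, fell in 1B (-1.41, adjusted p = 0.00027) and in HFD+1B (-1.38, adjusted p = 4.51e-05) against chow.

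Of 17 other triglyceride synthesis genes, 3 rose and 1 fell in HFD and 6 rose and 1 fell in HFD+1B against chow, with medians of 0.19 and 0.23. Gpat3, a glycerol-3-phosphate acyltransferase, rose in both (1.14, adjusted p = 0.00562, and 1.22, adjusted p = 0.00101). Gpd1, which supplies glycerol 3-phosphate, rose in 1B (1.65, adjusted p = 0.00051) and in HFD+1B (1.28, adjusted p = 0.000776). Lpin1, a phosphatidate phosphatase, rose in HFD+1B against HFD (2.12, adjusted p = 0.000345), and Gk, glycerol kinase, fell there (-0.85, adjusted p = 0.000116).

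Of 17 tested genes for fatty acid uptake and activation besides Cd36, 5 rose in HFD and 5 in HFD+1B against chow, and 1 and 3 fell. Fabp2, the intestinal fatty acid binding protein, rose in HFD (1.64, adjusted p = 5.68e-05) and HFD+1B (1.39, adjusted p = 2.27e-05), and Fabp4, the adipocyte and macrophage form, by 0.97 (adjusted p = 0.00485) and 1.63 (adjusted p = 1.07e-05). Acsl1, the main liver acyl-CoA synthetase, fell in HFD+1B against chow (-1.41, adjusted p = 0.000463) and in 1B (-1.09, adjusted p = 0.0115). Vldlr, a lipoprotein receptor, had a higher ethanol effect on HFD than on chow (interaction 0.85, adjusted p = 0.0396).

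Of 16 partners and coregulators of PPAR-gamma, none passed in HFD against chow, the comparison in which 6 of the 10 genes above rose; limma's differences there ran from -0.72 for Cebpa to 0.39 for Rxrg. In HFD+1B against chow 2 rose and 2 fell. Cebpb and Cebpd, C/EBP factors that act ahead of PPAR-gamma in adipocyte formation, rose (0.87, adjusted p = 0.00909, and 1.32, adjusted p = 9.74e-05). Nr1h3, which encodes LXR-alpha, fell by 1.07 on the log2 scale (adjusted p = 2.85e-06), and Cebpa fell by 1.07 (adjusted p = 0.0413). Among 15 PPAR-alpha targets, 7 fell in 1B and 6 rose in HFD against chow, and 5 fell in HFD+1B against HFD. Of all genes tested, 4.16% passed in 1B in either direction, 4.6% rose in HFD, and 8.44% fell in HFD+1B against HFD. In HFD+1B 4 of these targets rose and 3 fell against chow, and 7 rose against 1B.

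The genes whose pattern over the mice was most like that of a called gene are given as a description, with Pearson's r over the arrays that measured both. All points share the 4 groups and the same arrays. For Cidec they were Elovl5 (r = 0.99, 17 arrays), Enc1 (0.95), and Apoa4 (0.95, 16 arrays). For Cidea they were Lgals1 (0.97, 16 arrays), Anxa2 (0.95), and Apoc2 (0.94), and for Mogat1 Lgals1 (0.97, 16 arrays), Apoc2 (0.97), and Enc1 (0.96). For Cd36 they were Lgals1 (0.97, 16 arrays), Enc1 (0.96), and Aqp8 (0.96, 16 arrays), so Lgals1, the gene of galectin-1, headed the lists of 3 of the genes. For Plin4 they included Elovl5 (0.93) and Cidec (0.92), and for Plin2 they were Tmem237 (0.93), Ghitm (0.92, 12 arrays), and Fam126a (0.91).

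Markers of other cells that store or take up fat were read beside these changes. Of 11 adipocyte markers, 1 rose in HFD, Fabp4, and 1 fell, Adrb3 (-0.71, adjusted p = 0.0334), and Fabp4 alone passed in HFD+1B against chow. Adipoq, Lep, and Plin1, which define adipocytes, differed by -0.34, -0.01, and -0.10 in HFD+1B, none called. Cfd, the adipocyte gene of adipsin, differed by 1.75 in HFD (adjusted p = 0.169) and by 0.77 in HFD+1B (adjusted p = 0.587), with chow mice from -3.11 to 1.1, and over all 11 markers the differences ran from -0.71 to 1.75 in HFD and from -0.35 to 1.63 in HFD+1B. For Adipoq, Lep, and Plin1 the median Cy5 signals per group were at most 226, 40.5, and 58.3 intensity units. Summed raw Cy5 signals of the adipocyte markers ran from 2619 to 5446 in chow mice, from 2061 to 4601 in 1B mice, from 2457 to 5936 in HFD mice, and from 4672 to 9730 in HFD+1B mice. Those of 11 tested hepatocyte markers ran from 227506 to 794412 over all mice. Raw sums are not normalized between arrays. The mean log2 ratio of the adipocyte markers ran from -0.32 to 0.10 in chow, from -0.25 to -0.03 in 1B, from -0.01 to 0.15 in HFD, and from -0.04 to 0.15 in HFD+1B mice.

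Of 14 tested macrophage and Kupffer cell markers, 5 rose in HFD and 3 in HFD+1B against chow and none fell, among them Cd68 (1.28, adjusted p = 0.00119, and 1.37, adjusted p = 0.000116). Their mean log2 ratio was -0.52 to 0.02 in chow mice, -0.41 to -0.21 in 1B mice, 0.22 to 0.33 in HFD mice, and -0.16 to 0.52 in HFD+1B mice. Of 8 stellate cell markers, 3 rose in HFD and 5 in HFD+1B. Of 8 endothelial markers, 2 rose in HFD, and 2 rose and 3 fell in HFD+1B, and of the 11 hepatocyte markers 2 fell in HFD, and 3 rose and 1 fell in HFD+1B. Macrophages and stellate cells also carry droplet genes, and the part of these cells in the rise of the 10 genes was not tested.

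Values of the HFD arrays as a whole also stood apart. Probes for ribosomal RNA had a mean log2 ratio of -3.80 to -2.15 on the 4 HFD arrays and of -1.17 to 1.11 on the other 13, and the HFD arrays had median Cy5 signals of 63 to 98 intensity units beside 69 to 158. The mean log2 ratio of the 11 hepatocyte markers ran from -0.25 to 0.05 in the HFD mice, below its 0.19 to 0.37 in chow, 0.40 to 0.69 in 1B, and 0.27 to 0.76 in HFD+1B. The part of these values in the HFD comparisons was not tested.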

How the data were processed

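Liver cDNA of 17 mice (Cy5) was hybridized against a common reference (Cy3), described by the labels as assorted mouse RNA and as liver, with the same dye assignment on all arrays. The authors scanned the arrays and extracted spots with Agilent Feature Extraction 11.5.1.1, and deposited per array the raw median signal and local background of each spot as intensity, and processed intensity signals. They also deposited a table of log2 ratios, made in GeneSpring GX, which equaled the log2 ratio of the processed signals within 2.7e-06 and served for gene symbols and as an alternative.

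Here raw signals were background-corrected by normexp (offset 50), outlier spots were left out, loess normalization was run array by array, and repeated spots of a probe were averaged. A probe was tested if its Cy5 signal stood well above background on 4 or more of the 17 arrays and every group had a value. Group means were fitted to all 17 arrays in limma 3.58.1 (R 4.3.3, lmFit and eBayes), and 5 differences and the interaction were tested with Benjamini-Hochberg adjustment over 34664 probes. Precision is limited by the number of arrays. The script was tested on simulated data.

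The 10 genes were given by name, and they and all gene lists were chosen with earlier results of these data known. The probe with the highest mean normalized log2 Cy5 signal stands for a gene. By the median raw Cy5 signal the other Cd36 probe (863 against 807.5) and the second Mogat1 probe (213.5 against 212) were slightly brighter, with the same calls against chow. Named besides the 10 genes were, per list and comparison, some of the up to 2 genes with the widest called difference in each direction, and the 3 genes most correlated with each gene called at a fold of 2 or more in HFD+1B against chow, of which 1 is not reported here. Other values for Cebpa, Rxrg, Adipoq, Lep, Cfd, and Plin1 were chosen after they were seen.

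Replicate numbers are shared across groups. Deviations of same-numbered mice correlated in all 4 pairs of HFD and HFD+1B (r = 0.15 to 0.48). The number was taken to pair these, as an assumption. Mice with different numbers were not compared. Since 3 of the 4 pairs shared a slide, a pairing cannot be told apart from a shared slide. The sample titles give the number alone and state no pairing. The 4 pairs of 1B and chow also correlated positively (r = 0.07 to 0.33). HFD+1B mouse 5 has no same-numbered partner, so it adds nothing to the difference with this block. Alternatives were other background, normalization, filter, and probe choices, slide and replicate blocks, array weights, the Tukey test named in the methods, fold thresholds, and leaving out each mouse. The Tukey p was further adjusted by Benjamini-Hochberg over all probes, a step added here. RefSeq promoters are from GRCm38.p6 and the array design from an older build, so no probe coordinates were used. Figures were drawn with matplotlib 3.10.9.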

Additional observations from a re-analysis of the deposited data

Results flagged for a closer look

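Among 40 sets of mice, 1 per gene and group, 1 held a mouse set apart from the rest of its group by the gap between it and the nearest other mouse. Plin2 in HFD mouse 3 was 1.62, beside 0.73 to 0.88 in the other 3 HFD mice, a gap that took up 0.836 of the whole range of the group. By chance about 2 of 40 sets would be marked in this way. Without this mouse Plin2 remained called in HFD against chow.

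The ethanol effect on the second Pnpla2 probe differed between the diets. The interaction was 0.71 (adjusted p = 0.0228, limma), with an ethanol difference of 0.17 in chow-fed and 0.88 in HFD-fed mice. It missed the threshold in 6 of 29 alternative settings, among them the authors' table (0.72, adjusted p = 0.0619), and without chow mouse 3 (0.64, adjusted p = 0.0505), chow mouse 4 (0.67, adjusted p = 0.0561), or 1B mouse 1 (0.68, adjusted p = 0.0503), and ran from 0.63 to 1.04 over all of them.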

How the results depend on the processing

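No called difference of the 10 genes reversed its direction under any setting tried. By the analysis of variance with the Tukey test, 0 genes were called in HFD+1B against HFD and 4 in HFD+1B against 1B, in place of 2 and 7. Here and below the Tukey p was further adjusted by Benjamini-Hochberg over all probes, a step the study's methods do not name. Calls by the Tukey p alone are not given. With a fold of at least 2 and an unadjusted p, 1 gene was called in 1B against chow (Cidec), 1 in HFD+1B against HFD (G0s2), and 1 in the interaction (G0s2), and with a fold of at least 2 and an adjusted p, 1 in HFD+1B against HFD (G0s2). The shares of all genes called by these fold rules are not given here. Leaving out 1 mouse gave 1 to 3 genes in HFD+1B against HFD, 6 to 7 in HFD+1B against 1B, 6 in HFD against chow, 7 in HFD+1B against chow, 0 in 1B against chow, and 0 in the interaction. With the replicate block, taken to pair HFD and HFD+1B mice, 3 genes were called in that comparison (Plin2 added). The counts of the other comparisons were 0, 6, 7, 7, and 0 as without it, and there the numbers were not taken to pair the mice. Plin4 also lost its calls in HFD+1B against 1B with Cy5 alone (adjusted p = 0.0951) and by the Tukey test, and in HFD against chow by the Tukey test (adjusted p = 0.164), and Plin2 lost those in HFD+1B against chow and 1B by it (adjusted p = 0.139 and 0.202). Of the 7 called in HFD+1B against chow, Pnpla2 was lost and G0s2, lower, was called in its place without chow mouse 1 or 2, and Pnpla2 was also lost with the authors' table (adjusted p = 0.0703) and by the Tukey test (adjusted p = 0.18). The cause was not tested. Arrays of 4 or 5 mice per group limit what can be called.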
